A study of Homo sapiens with 6 samples.

Results

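The regions described here are 444 acetylation peaks at gene starts that were listed after sodium benzoate (SB) treatment, that shared no base with an acetylation peak of the control cells and that shared no base with a benzoylation peak. They were taken from 63282 peaks of acetylated lysine (Kac) in SB-treated cells, on the autosomes and X. Each of them reached into the window from 1 kb before to 1 kb after the canonical transcription start site (TSS) of a protein-coding gene, and they lay in the windows of 455 of 19970 coding genes, or 2.28%. Of the 1976 SB Kac peaks in such windows without benzoylated lysine (Kbz), the 444 made up 22.5%. Since the presence of SB Kac and the absence of control Kac and Kbz chose the regions, these properties are a description and were not tested.

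The cells are labelled HepG2, a human liver tumour line. The control cells were grown without SB and the treated cells with 10 mM SB for 24 h, in the same full medium, and 1 library was sequenced for input, for Kac and for Kbz in each condition, which makes 6 libraries with 1 per group. The lists used are control Kac with 70326 peaks, SB Kac with 63282 and SB Kbz with 24308, and per the labels no peaks were called for Kbz in control cells. Treatment and library cannot be told apart in this design, no difference could be set against replicate error, and the sequencing depth behind each list is unknown. Intervals in brackets after a share are Wilson 95% intervals for counting error. A gained peak is used below as a name for a peak listed with SB and not in the control. A region listed in 1 library and not in the other can have had reads in both, since a list holds only what passed the caller's threshold.

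The label of the cells was checked on marker genes. Of 20 genes that mark hepatocytes, 4 had an SB Kac peak, 6 a control Kac peak and 2 a Kbz peak in the window of 1 kb around the TSS. For 12 of them, among which were the albumin gene ALB, the alpha-fetoprotein gene AFP, the apolipoprotein gene APOB and the liver regulators HNF4A and FOXA2, no list had a peak within 3 kb of the TSS. Of 11 genes that mark other cell types, 3 had SB Kac, 4 control Kac and 0 Kbz. The defining markers of the liver line thus mostly lacked peaks in these lists, and the cells are called by their label only.

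Acetylation of histone lysines neutralises their positive charge and is bound by bromodomain proteins, and nucleosomes beside active promoters commonly carry it, while the start itself is often poor in nucleosomes. Benzoylation is an acyl mark on the same residues, built from benzoyl-CoA, for which benzoate is the precursor. The antibodies recognise acetylated or benzoylated lysine in general, so the peaks do not tell which histone or residue was marked. Many human promoters lie in CpG islands, stretches in which the CpG dinucleotide has escaped the depletion found in most of the genome, and these promoters are often acetylated in many cell types, whereas promoters poor in CpG tend to be used in fewer tissues.

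The promoters below are shown because the CpG content of the regions' genes changed with the strength of the peaks. Each runs from 250 bases before to 50 bases after the TSS, is read from the hg38 genome on the strand of the gene, and has its CpG dinucleotides in capitals. The first 5 are from the 6 promoters with the highest fold among those whose TSS lay under the gained peak and whose window held no control Kac peak. They are CTSF (cathepsin F, a lysosomal protease; chr11:66568557-66568856, minus strand), SANBR (chr2:61065621-61065920, plus strand), INTS15 (a subunit of the Integrator complex; chr7:6589771-6590070, plus strand), HMGB1P1 (chr20:57495317-57495616, minus strand) and UPK3B (an uroplakin; chr7:76510302-76510601, plus strand). The last has the lowest CpG ratio among the 50 gained peaks with the highest fold, OAZ3 (an antizyme of the testis; chr1:151766405-151766704, plus strand).
CTSF: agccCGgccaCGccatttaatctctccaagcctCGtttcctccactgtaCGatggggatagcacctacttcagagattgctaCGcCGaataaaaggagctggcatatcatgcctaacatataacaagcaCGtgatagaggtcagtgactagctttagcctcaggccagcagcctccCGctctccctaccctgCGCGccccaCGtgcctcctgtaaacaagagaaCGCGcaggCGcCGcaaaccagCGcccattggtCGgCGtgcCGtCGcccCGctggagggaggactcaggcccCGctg
SANBR: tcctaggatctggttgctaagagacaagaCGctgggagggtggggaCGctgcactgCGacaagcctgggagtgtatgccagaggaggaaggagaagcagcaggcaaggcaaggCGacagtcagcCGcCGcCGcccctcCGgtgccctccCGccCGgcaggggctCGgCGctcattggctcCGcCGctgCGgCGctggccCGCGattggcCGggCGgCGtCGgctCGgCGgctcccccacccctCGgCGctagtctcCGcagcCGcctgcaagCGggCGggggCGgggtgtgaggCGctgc
INTS15: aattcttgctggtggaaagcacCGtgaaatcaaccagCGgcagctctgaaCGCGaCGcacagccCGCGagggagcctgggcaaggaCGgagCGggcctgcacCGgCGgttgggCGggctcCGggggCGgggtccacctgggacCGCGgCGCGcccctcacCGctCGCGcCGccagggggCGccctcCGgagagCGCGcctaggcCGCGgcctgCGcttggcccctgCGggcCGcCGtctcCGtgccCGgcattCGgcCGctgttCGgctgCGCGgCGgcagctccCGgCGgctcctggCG
HMGB1P1: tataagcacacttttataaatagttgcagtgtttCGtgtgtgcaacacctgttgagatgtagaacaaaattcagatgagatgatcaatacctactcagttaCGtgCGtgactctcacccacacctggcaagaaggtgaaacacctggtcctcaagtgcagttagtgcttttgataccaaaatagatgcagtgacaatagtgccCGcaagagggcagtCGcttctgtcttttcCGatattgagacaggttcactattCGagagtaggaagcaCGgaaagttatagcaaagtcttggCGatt
UPK3B: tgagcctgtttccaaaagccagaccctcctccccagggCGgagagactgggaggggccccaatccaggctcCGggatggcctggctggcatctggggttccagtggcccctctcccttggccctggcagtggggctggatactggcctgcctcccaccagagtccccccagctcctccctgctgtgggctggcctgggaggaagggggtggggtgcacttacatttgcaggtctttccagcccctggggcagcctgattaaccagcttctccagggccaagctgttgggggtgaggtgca
OAZ3: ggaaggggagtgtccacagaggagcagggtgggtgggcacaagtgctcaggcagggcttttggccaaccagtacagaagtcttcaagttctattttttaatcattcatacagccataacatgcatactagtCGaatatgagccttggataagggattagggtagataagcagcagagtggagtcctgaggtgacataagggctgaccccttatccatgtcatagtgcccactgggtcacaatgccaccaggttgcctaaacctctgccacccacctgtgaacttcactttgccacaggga

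The INTS15 promoter held 43 CpG dinucleotides, SANBR 32 and CTSF 22. HMGB1P1 held 9, UPK3B 2 and OAZ3 1. The ratio of observed to expected CpG, in which the count is set against the C and G content, ran from 0.0529 in OAZ3 and 0.0619 in UPK3B to 0.984 in INTS15. UPK3B had a GC content of 65.7% with hardly any CpG, so a high GC content and a high CpG ratio were separate properties among these promoters. HMGB1P1 resembles other loci, and only reads that mapped to a single place were kept, so its peak is uncertain.

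The strongest regions were short and lay beside the TSS. Fold here is the authors' ratio of read density over background, averaged over a broad peak, and its percentile is the rank of that ratio in the SB Kac list. The highest fold was 4.52, at NIPA1, a magnesium transporter gene, where the peak chr15:22785889-22786453 ended 191 bp upstream of the TSS, at percentile 84.7 and a −log10 q of 7.28. The nearest control Kac peak was 52345 bp away. At NALCN, the gene of the sodium leak channel of neurons, a peak of 325 bp (chr13:101416608-101416932) lay 100 bp upstream with a fold of 4.13, and the nearest control Kac peak was 785598 bp away.

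CTSF followed with a fold of 4.09 and a peak of 2460 bp over the TSS (chr11:66567954-66570413), 6422 bp from control Kac. LIG4, the ligase that joins DNA ends in break repair, had a peak of 321 bp (chr13:108215639-108215959) with a fold of 4.08, 103 bp upstream of its TSS. Control Kac lay at 1690 bp and Kbz at 1745 bp, so at LIG4 both other lists had peaks close by but outside the window. SNX25, a sorting nexin gene, had a fold of 4.06 on 343 bp (chr4:185208984-185209326), and an intron of ATP6V1C2, a subunit of the vacuolar proton pump, had one of 4.00 on 424 bp (chr2:10721838-10722261).

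The remaining 6 of the 12 regions with the highest fold had folds from 3.85 to 3.94. ZDHHC2 is a palmitoyltransferase gene, and its peak of 316 bp lay 394 bp upstream of the TSS. NBPF20 belongs to a family of near-identical copies on chromosome 1 and is uncertain for that reason. SANBR had a peak of 1359 bp over its TSS, and SPOCK1, the gene of a secreted proteoglycan, one of 328 bp that began 110 bp downstream. TMTC4, a mannosyltransferase gene, held 2 gained peaks on either side of its TSS, with folds of 3.86 downstream and 2.95 upstream.

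The last of the 12 touched the windows of FOXA1, a pioneer factor of endoderm, and of TTC6 (chr14:37594371-37594686), with a fold of 3.85. It was 1232 bp from control Kac, which also occupied another stretch of the window. Of the 12 peaks, only those of CTSF and SANBR covered a TSS, and all 13 of their genes had CpG-rich promoters by the definition given below.

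Among themselves the 444 regions were short and of modest strength. Their lengths ran from 280 to 4466 bp with a median of 755.5 bp, and 142 of them (32.0%) were under 500 bp while 40 (9.01%) reached 2 kb. The folds ran from 2.13 to 4.52 with a median of 2.75. In the whole SB Kac list the regions held a median percentile of 34.5, with the middle 50% between 19.6 and 51.2. Of the regions, 0 of 444 were in the top decile of the list and 118 (26.6%, 22.7 to 30.9) were above its median. The study states a false discovery rate of 0.01, which is a −log10 q of 2, and the deposited list reaches down to 1.31. At that stated rate 240 of the 444 regions were kept (54.1%, 49.4 to 58.6), and 12 (2.70%) reached 5. When all 3 lists were held to a −log10 q of 2 before the rule was applied, it chose 354 regions, and it chose 1261 when a shared peak had to overlap by at least 50%. With the 50% overlap the median length was 1817 bp and the median percentile 56.6. At a −log10 q of 5 in all lists 995 regions with a median length of 2441 bp were chosen, of which 12 were among the 444 and 983 overlapped a control Kac or Kbz peak of the full lists.

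The longest regions were of middling fold. A stretch of 4466 bp over the start of LY6G6C, in the major histocompatibility complex (chr6:31717574-31722039), had a fold of 3.03 and was followed by control Kac at 1674 bp. At KIAA2012 the peak of 4317 bp (chr2:202073734-202078050) began 479 bp downstream of the TSS. DCUN1D1, a gene of the neddylation pathway, had 3966 bp over its start (chr3:182978380-182982345), with control Kac at 1797 bp and Kbz at 116394 bp. The fourth, of 3638 bp (chr9:128937894-128941531), covered the start of the gene listed as ENSG00000251184.

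**Figure D1:**
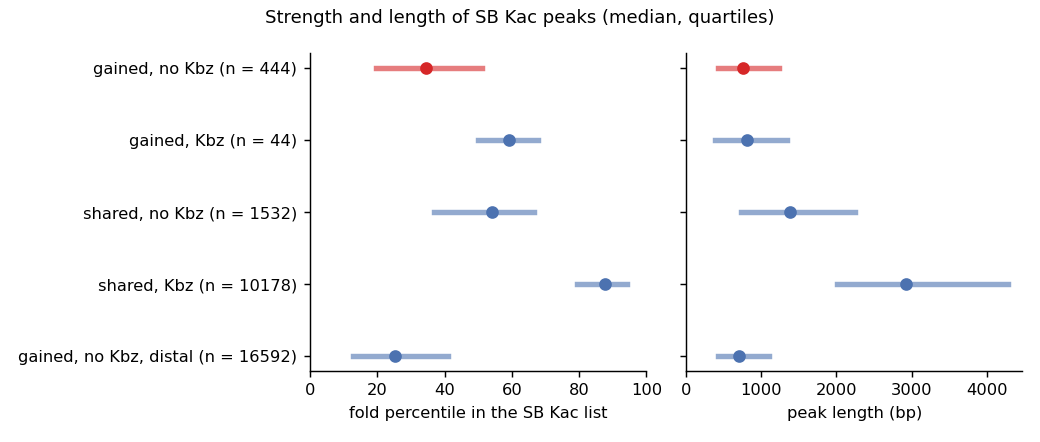
Percentile of fold in the SB Kac list (left) and peak length in bp (right) for the gained regions and 4 other classes of SB Kac peaks, with points for the median and bars for the quartiles. The gained promoter regions without Kbz (median 755.5 bp, percentile 34.5) sit below the shared promoter peaks without Kbz (1385.5 bp, percentile 54.2) and above the gained distal peaks (percentile 25.2).

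The regions were set beside other classes of peaks. The 1532 promoter peaks without Kbz that were shared with the control had a median length of 1385.5 bp and a median percentile of 54.2, and 84.7% of them passed the stated false discovery rate against 54.1% of the gained regions. The 44 gained promoter peaks with Kbz had a median length of 810 bp and a median percentile of 59.1, and 86.4% of them passed. The 10178 shared promoter peaks with Kbz were far longer and stronger, with medians of 2922 bp and percentile 87.8. The 16592 gained peaks without Kbz outside coding windows were nearest to the regions, with a median of 708 bp and percentile 25.2, and 45.5% of them passed. In the opposite direction, 565 control Kac peaks without Kbz in the same windows had no SB Kac peak, with a median of 761 bp and percentile 35.4 of the control list, and 71.7% of these passed. Peaks listed in the control alone were thus more numerous than the gained ones, of like median length and rank, and more of them passed the stated rate. The control list was also the longer, with 70326 peaks against 63282, and its overall share passing is not given here. The TSS lay under a gained peak without Kbz at 160 genes and under a control-only peak without Kbz at 240. Only when all starts were counted, without regard to Kbz, was the order reversed. Then 932 of 19970 starts (4.67%) lay under SB Kac and not control Kac, and 680 (3.41%) under control Kac and not SB Kac. A start counted this way can have Kac of the other list elsewhere in its window. Only 525 windows had SB Kac and no control Kac.

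From the second decile of fold on, the share of peaks without control Kac fell with the strength of the peak, at promoters and away from them. Outside the coding windows 41.6% of the SB Kac peaks without Kbz had no control Kac, against 22.5% inside them. Within deciles of fold the promoter share was below the distal one in the fifth decile, at 21.0% (16.6 to 26.1) against 35.6% (34.3 to 36.9), and in the seventh, at 12.4% (9.40 to 16.2) against 19.6% (18.4 to 21.0). In the eighth decile the intervals met, with 6.09 to 13.2 around 9.02% inside the windows and 10.5 to 13.7 outside them. The lower share at promoters was therefore also seen among peaks of like fold, up to the seventh decile.

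**Figure D2:**
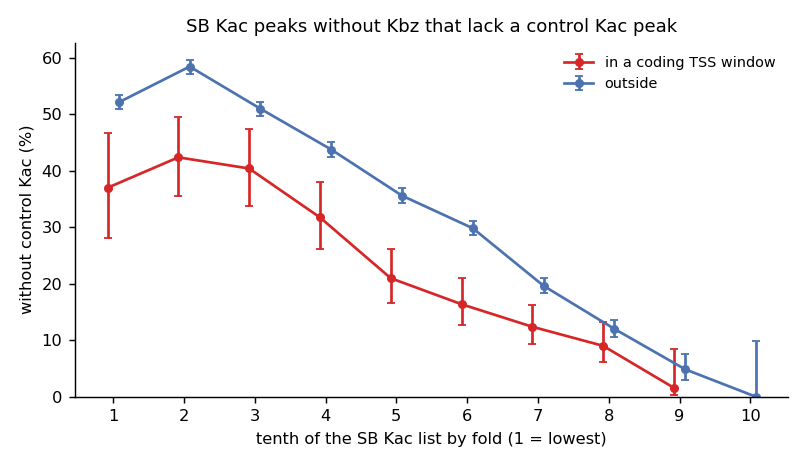
Share in percent of SB Kac peaks without Kbz that had no control Kac peak, by decile of fold in the SB Kac list, for peaks in coding TSS windows and outside them, with Wilson 95% intervals. Both shares fall from the second decile towards the strong peaks, deciles with under 20 peaks are not drawn, and in the fifth decile they are 21.0% in windows and 35.6% outside.

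Under the reported rule the regions were spread over and beside the TSS. The peak covered the canonical TSS in 156 of 444 (35.1%, 30.8 to 39.7), lay wholly upstream in 129 (29.1%) and wholly downstream in 159 (35.8%). The share over the TSS was 83.2% at a −log10 q of 5 in all lists, 61.5% with the 50% overlap and 14.3% with a window of 3 kb. Peaks over the TSS were longer, with a median of 1051 bp against 596 bp for the others. When every annotated start of a coding gene was counted, 207 regions (46.6%) covered one, 10 covered only a noncoding start and 227 (51.1%, 46.5 to 55.7) covered no annotated start. By sequence, 296 regions touched an exon, 89 lay in introns and 59 between genes.

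Around the 455 starts the gained peaks formed a broad plateau that control Kac lacked. They covered 35.2% of the genes at the TSS and 37.1% at 100 bp downstream, the highest value, and at 1 kb they covered 24.4% upstream and 28.8% downstream. Control Kac covered 1.54% of the same genes at the TSS, 5.93% at 1 kb upstream and 5.27% at 1 kb downstream. At 5 kb SB Kac and control Kac were level, with 8.35% and 7.91% upstream and 10.8% and 11.9% downstream. The presence of gained peaks within 1 kb and the gap in control Kac there both follow from the rule, while the levels at 5 kb do not.

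**Figure D3:**
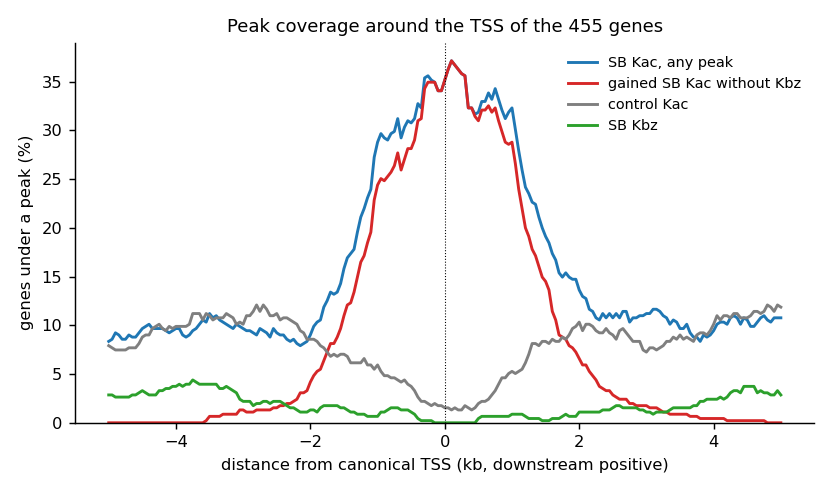
Share in percent of the 455 genes covered by gained regions, by any SB Kac, by control Kac and by Kbz at each distance from the canonical TSS (kb, downstream positive). The gained regions peak at 37.1% at 100 bp downstream, control Kac is at 1.54% at the TSS, and SB Kac and control Kac are near each other at 5 kb.

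Under the reported rule most of these windows held no control Kac at all, but with the 50% overlap the share was 35.1% and with a window of 3 kb it was 38.6%. Of the 455 genes, 397 (87.3%) had none in the window and 58 (12.7%) had it beside the gained peak. At 152 genes (33.4%) the TSS itself was under the gained peak and the window was free of control Kac. Another start of the same gene carried control Kac at 78 genes with an otherwise empty window (17.1%), and at 319 (70.1%, 65.7 to 74.1) no coding start of the gene did. Kbz was present elsewhere in the window at 12 genes (2.64%). In the reverse direction, 654 of all 19970 windows (3.27%) had control Kac and no SB Kac, against 525 (2.63%) with SB Kac and no control Kac. At the TSS itself, over all starts and without regard to Kbz, the larger count was on the SB side, as given above.

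The distance to the nearest control Kac peak ran over several orders of magnitude. It was 19 bp at the shortest, 4273.5 bp in the median and 922711 bp at the longest. In 50 regions (11.3%, 8.65 to 14.5) control Kac lay within 1 kb, in 151 (34.0%) it was beyond 10 kb and in 22 (4.95%) beyond 100 kb. Kbz was farther, with a median of 18740.5 bp, and 3 regions had it within 1 kb. The Kbz list is also the sparser, with a median gap of 35856 bp between its own neighbouring peaks against 9182 bp in control Kac. The greater distance is therefore not particular to these regions by itself. In 48 regions (10.8%) Kbz was nearer than control Kac. Inside each list neighbouring peaks were more than 1 kb apart, so no region had another SB Kac peak within 1 kb.

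The region farthest from control Kac was at GPR39, a zinc-sensing receptor. Its peak of 1004 bp covered the TSS (chr2:132416042-132417045) with a fold of 3.10, and the nearest control Kac and Kbz peaks were 922711 and 733223 bp away. A peak over the shared start region of STS, the steroid sulfatase gene, and PUDP (chrX:7147387-7148594) had a fold of 2.71 and control Kac at 915955 bp, and Kbz was 2313858 bp away. NALCN and NBPF20, described above, followed. At NEXMIF (chrX:74924708-74925240) control Kac was 229811 bp away, and at KCTD8 (chr4:44448740-44449059), whose product belongs to the GABA-B receptor complex, it was 228777 bp away.

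**Figure D4:**
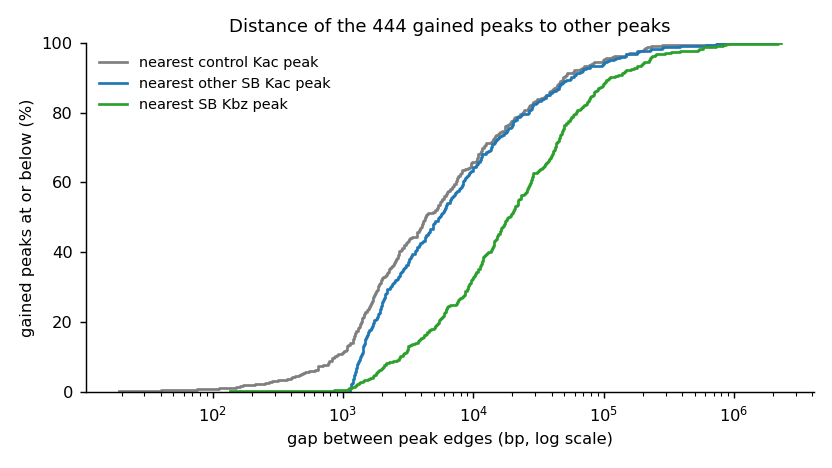
Distance in bp (log axis) from each of the 444 gained regions to the nearest control Kac, other SB Kac and Kbz peak, as cumulative shares in percent. The medians are 4273.5 bp for control Kac, 5469 bp for other SB Kac and 18740.5 bp for Kbz, and control Kac lies within 1 kb of 11.3% of the regions.

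The promoters of the regions' genes were mixed in CpG content. A promoter was called CpG-rich when the window of 300 bases had a CpG ratio of at least 0.6 and a GC content of at least 50%. By this measure 219 of the 455 genes were CpG-rich (48.1%, 43.6 to 52.7), against 65.5% (64.9 to 66.2) of all coding genes. The share depended on the rule. It rose above that of all coding genes, to 89.2%, only when all lists were held to a −log10 q of 5. There 983 of the 995 regions overlapped a control Kac or Kbz peak of the full lists. With the 50% overlap it was 66.4% (63.9 to 68.9), near that of all coding genes. It stayed lower at a −log10 q of 2 (56.2%) and with windows of 3 kb (57.4%) or 500 bp (45.5%). With every coding start it was 31.4% of 1960 starts, which cannot be set against a share of genes. Shared promoter peaks without Kbz had 60.7% (58.2 to 63.1), shared ones with Kbz 87.4% (86.8 to 88.0) and genes with no peak 27.3% (26.1 to 28.5). Genes with gained Kac and Kbz had 77.6% (38 of 49 genes, 64.1 to 87.0), and those of control Kac without SB Kac 33.5% (29.7 to 37.4). The regions lay between the genes with no peak and the shared promoters.

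Within the regions the CpG content changed with the fold of the peak. Counted once per region by its nearest gene, the 50 regions with the highest fold had CpG-rich promoters in 80.0% (67.0 to 88.8), ranks 51 to 150 in 64.0% (54.2 to 72.7), ranks 151 to 300 in 47.3% (39.5 to 55.3) and ranks 301 to 444 in 26.4% (19.9 to 34.1). The strongest 50 were short, with a median of 415.5 bp, and 11 of them covered a TSS. Shared promoter peaks without Kbz changed in the same way. Between percentiles 25 and 50 of the SB Kac list the gained regions had 50.6% (43.2 to 57.9) and the shared peaks 50.3% (45.7 to 55.0), and between 50 and 75 they had 69.4% (60.2 to 77.3) and 73.1% (69.8 to 76.2). Up to percentile 25 both stood at 27.3%. Up to percentile 75 the gained and the shared peaks therefore differed by less than their counting intervals at like fold, although their overall shares differed. Above it they had 100% (13 of 13 genes, 77.2 to 100) and 84.1% (77.5 to 89.0). Control-only peaks without Kbz, ranked in the control list, stood lower than the gained regions. They had 36.2% (30.1 to 42.8) between percentiles 25 and 50 and 47.9% (39.9 to 56.0) between 50 and 75.

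**Figure D5:**
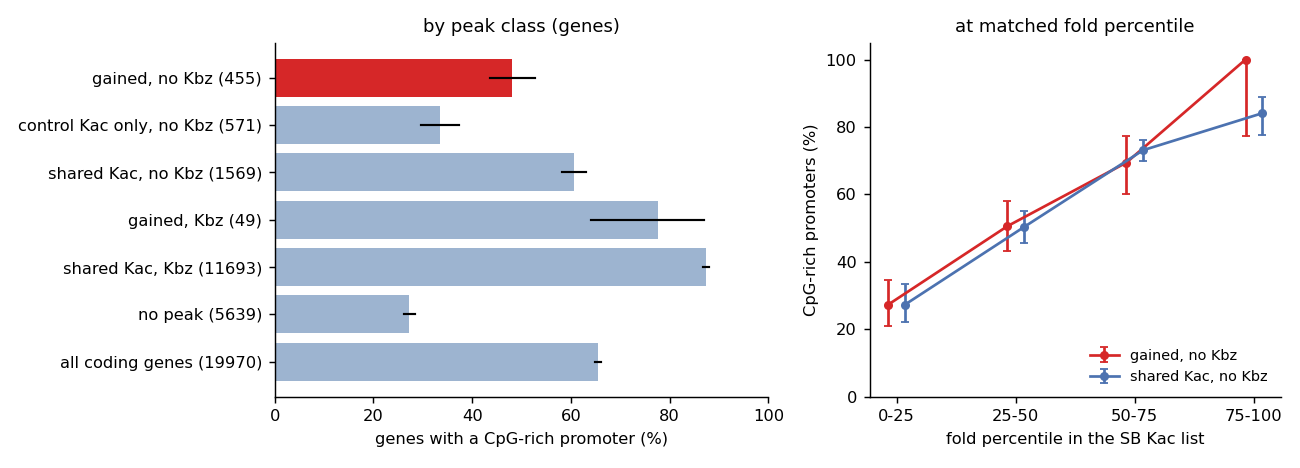
Left, share in percent of genes with a CpG-rich promoter for each peak class, with the number of genes in brackets, and right, the same share for gained and shared promoter peaks without Kbz by percentile of fold in the SB Kac list; lines are Wilson 95% intervals. The gained regions stand at 48.1% and the shared peaks at 60.7% on the left, while between percentiles 25 and 50 they stand at 50.6% and 50.3%.

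The position of the peak went with CpG content too. Where the TSS lay under the gained peak 36.9% of the genes were CpG-rich (59 of 160, 29.8 to 44.6), and where the peak lay beside the TSS 54.2% were (160 of 295, 48.5 to 59.8). The shared peaks without Kbz had 57.3% (54.1 to 60.4) and 65.6% (61.9 to 69.2), and the control-only peaks 22.9% (18.1 to 28.6) and 41.1% (35.9 to 46.5). These 3 classes had the lower share under the peak, while gained peaks with Kbz had 79.2% (19 of 24) under and 76.0% (19 of 25) beside it.

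Short sequence motifs were counted in the 300 bases around each start, on both strands. The TATA box TATAAA was in 8.79% of the promoters of the regions' genes (6.52 to 11.8) and in 9.73% of all coding promoters, CCAAT in 34.9% and 36.0%, and the GC box GGGCGG in 58.2% and 61.3%. The ETS site CCGGAAG was in 6.37% against 14.1%, the cyclic AMP response core TGACGT in 4.62% (3.04 to 6.95) against 9.49%, and the NRF1 core GCATGCG in 2.42% (1.36 to 4.28) against 5.09%. These 3 motifs contain CpG, as do GGGCGG and CACGTG. Among CpG-rich promoters alone CCGGAAG was in 10.5% (23 of 219, 7.10 to 15.3) against 19.2%, TGACGT in 6.39% (3.85 to 10.4) against 11.8%, and GCATGCG in 3.20% (1.56 to 6.45) against 6.89%. GGGCGG was in 85.8% (80.6 to 89.8) against 81.1%. Among the other promoters GGGCGG was in 32.6% (27.0 to 38.8) against 23.6%, and TATAAA was in 12.7% (30 of 236, 9.05 to 17.6) against 20.6%. The forkhead motif TGTTTAC was in 3.30% (2.01 to 5.37) against 2.42%, the E-box CACGTG in 6.59% against 8.75%, and the AP-1 site TGANTCA in 4.84% against 5.44%. The members of a set of promoters are not independent samples, and a motif is a run of letters and not a bound site.

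The genes were then grouped by function, beside the 2.28% found over all coding genes. Of 32 liver plasma protein genes 4 held a gained region (12.5%, 4.97 to 28.1). Ceruloplasmin (CP), the copper carrier, had a peak of 297 bp 203 bp upstream of its TSS (chr3:149222032-149222328) at percentile 66.9, with control Kac at 2297 bp. SERPINC1, which encodes antithrombin, had one over its TSS at percentile 33.2, with control Kac at 47668 bp. The complement gene C3 and the apolipoprotein gene APOA2 had weak ones, at percentiles 12.7 and 3.64. The window of C3 also held Kbz, and that of APOA2 control Kac. In the same list 8 genes had SB Kac and 9 control Kac, so the number of acetylated plasma protein genes was nearly the same with and without SB. The genes were in part different ones, since 3 windows had SB Kac alone and 4 had control Kac alone. Of 19 liver transcription factors FOXA1 alone held a region. Enzymes of benzoate activation and glycine conjugation held 0 of 11, of which 1 had SB Kac. Glycerophospholipid and phospholipase D enzymes held 0 of 56, of which 51 had SB Kac, 52 control Kac and 45 Kbz.

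Among receptors and channels, 10 of 228 G protein-coupled receptor genes held a region, or 4.39% (2.40 to 7.88). Set against the number of windows with SB Kac and no Kbz, the genes with a region came to 21.3% for these receptors. Over all coding genes the same measure was 20.5%, so on this base the receptors were near the whole. PTGER4, a prostaglandin E receptor, had a peak of 288 bp that began 13 bp downstream of its TSS (chr5:40679928-40680215), with a fold of 3.78 and control Kac at 8260 bp. ADRB1, the beta-adrenergic receptor of the heart, had one 225 bp upstream (chr10:114042789-114043641) with a fold of 3.71 and control Kac at 8604 bp. GPR12 and GPR39 had folds of 3.11 and 3.10. Of 96 potassium channel genes 4 held one, with KCNG4 at 2.76, KCNK6 at 2.62, KCNH4 at 2.54 and KCNJ10 at 2.51, and of 63 neurotransmitter-gated channel genes 3 did, the acetylcholine receptor genes CHRNG and CHRNA10 and the glutamate receptor gene GRIK1. Windows with control Kac alone outnumbered those with SB Kac alone, by 14 to 3 in potassium channels and 9 to 3 in neurotransmitter-gated ones. In the G protein-coupled receptors they stood at 12 to 10. Olfactory and taste receptors had 1 of 443, at OR13J1, but only 5 of these windows had any SB Kac and 3 had Kbz.

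Among transporters, 10 of 373 solute carrier genes held a region (2.68%), a share near that of all coding genes. SLC4A5, a bicarbonate transporter, had a peak of 2123 bp over its TSS with a fold of 3.27. SLC2A5, the fructose transporter, had one over its TSS with a fold of 3.14 and control Kac at 57872 bp. The organic anion transporter SLC22A7 had a fold of 2.92, and the bile acid transporter SLC10A1 a fold of 2.46 with control Kac at 20456 bp. The ABC transporters had 0 of 46, of which 34 had control Kac and 28 Kbz.

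Among transcription factors, 5 of 129 homeobox genes held a region. GSX2, a factor of forebrain patterning, had a peak of 280 bp over its TSS, the shortest length among the regions, with a fold of 2.98. HOXD4 had one 731 bp upstream with a fold of 2.94, and POU5F1, the pluripotency factor, one 560 bp downstream with 2.79 and control Kac only 253 bp away. The forkhead and Krüppel-like genes added FOXC2, with a fold of 3.35 over its TSS, and KLF14, with 2.91. Zinc finger genes had 5 of 566 (0.883%), with ZNF431 at a fold of 3.24 and ZNF451 at 3.05, and their close copies make them uncertain. Kbz lay in 403 of the 566 zinc finger windows, which left fewer open to the rule. Set against windows with SB Kac and no Kbz, their share was 18.5%, near the 20.5% of all coding genes.

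Among genes of the cell surface, matrix and signalling, the cadherin and claudin genes had 3 of 47. CLDN23 had a fold of 3.54 with control Kac at 48951 bp, CDH15 one of 3.06 with control Kac at 641 bp, and CLDN5, the claudin of endothelium, one of 2.82 with control Kac at 325 bp. Matrix proteases had 4 of 68, led by MMP23B at 3.47, and collagens, laminins and integrins 3 of 79, led by COL5A2 at 3.06. Interleukins, chemokines and their receptors had 5 of 160, among which the lymphoid chemokine CCL19 had 2.74 and IL13 had 2.63. Protein phosphatases and kinases had 9 of 264, with PPP2R3A at 3.04 and control Kac at 103687 bp. Windows with control Kac alone stood against those with SB Kac alone at 6 to 2 in cadherins and claudins. They stood at 11 to 4 in collagens, laminins and integrins and at 15 to 8 in interleukins and chemokines. Matrix proteases had 3 to 4, and phosphatases and kinases 10 to 13.

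Lists of genes of other tissues held few regions, and the interval of each share included the 2.28% of all coding genes. The neuronal list had 2 of 42 (4.76%, 1.32 to 15.8), the postsynaptic scaffold SHANK3 with a fold of 3.43 and the neurofilament NEFM with 2.74. The muscle list had 1 of 41 (2.44%, 0.432 to 12.6), TNNI1. The endothelial list had 1 of 12 (8.33%, 1.49 to 35.4), CLDN5. The germ line list had 1 of 36 (2.78%, 0.492 to 14.2), ACR, and the list of motile cilia 4 of 93 (4.30%, 1.69 to 10.5), led by CFAP157 at 3.28. The blood list had 0 of 30 (0 to 11.4). Housekeeping families held none, with 0 of 80 cytosolic ribosomal protein genes, 0 of 78 mitochondrial ones and 0 of 39 complex I subunits, of which 79, 76 and 38 had control Kac in the window. Deacetylases and histone acetyltransferases, the enzymes of the mark, had 0 of 18 (0 to 17.6) and 0 of 14 (0 to 21.5), intervals that include 2.28%. Control Kac lay in 17 and 14 of these windows and Kbz in 16 and 12, so the rule left little room for a region.

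A few regions served several genes or stood close together. Of the 444, 432 touched the window of 1 gene, 11 of 2 genes and 1 of 3. The peak at GDF1 and CERS1 (chr19:18894586-18895798) had a fold of 3.79, and that of GGN and SPRED3 (chr19:38387550-38387968) a fold of 3.37. Regions within 200 kb of each other formed 3 groups of 3, PLCB2 with INAFM2 and DISP2 on chromosome 15, SEBOX with UNC119 and ALDOC on chromosome 17, and CD72 with CA9 and OR13J1 on chromosome 9. By chromosome the share of coding genes with a region ran from 1.40% on X to 3.85% on chromosome 8 (27 of 702, 2.66 to 5.54).

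Regions at the border of the rule spanned a range of strengths. Just inside the window were C1QB with 1 bp, EBF4 with 4 bp and PPM1N with 5 bp, at percentiles 14.7, 31.9 and 7.50. Just outside it were DNAJB8 at 20 bp, ARHGAP9 at 30 bp and ESPN at 31 bp, at percentiles 4.84, 18.7 and 23.2. The regions nearest to control Kac were SLC15A3 at 19 bp, RHBDL3 at 21 bp and ETV7 at 40 bp, at percentiles 16.6, 18.4 and 33.2. Peaks left out by the fewest shared bases were those of NPTXR with 8 bp, SPRED3 with 9 bp and GUCA2A with 31 bp, at percentiles 57.7, 43.0 and 8.66.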

How the data were processed

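Acetylation and benzoylation were measured by ChIP-seq on chromatin cut with micrococcal nuclease. According to the study's methods and the labels, the authors aligned single reads of 50 bp to hg38 with Bowtie2 2.2.6, kept uniquely mapped reads, removed duplicates with SAMtools 0.1.19 and called peaks per library with MACS2 2.1.1 at a false discovery rate of 0.01. The broad setting and the background track are not given in the sources used here. The deposited fold is a linear ratio over background, and the deposited −log10 p and −log10 q belong to the whole broad peak. The deposited score is a display value and was not used. The lists carry no read totals, so depth is unknown.

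Peaks on 22 autosomes and X were overlapped (at least 1 bp) with each other and with windows of 1 kb around the canonical TSS of GENCODE 44. Python 3.11.15, numpy 2.4.6, pandas 2.3.3, scipy 1.17.1, pysam 0.24.0, matplotlib 3.10.9, samtools 1.23.1 and bedtools 2.31.1 were used. Tested on simulated data, 1000 of 1000 planted overlaps were found and 0 of 1000 planted beside were called, and bedtools gave the same 444 regions. Shares carry Wilson 95% intervals. With 1 library per group no test was run.

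A few items that the naming rule chose are not reported here. The regions and the 12 gene lists and 29 families were chosen with earlier results of these data known. Named were the 12 highest folds, the 4 longest, the 6 farthest from control Kac, the 4 highest folds touching several genes, up to 4 genes of each list or family with at least 3 members, and the regions at the limits of the rule. Genes named from lists with fewer members, the chromosome groups and the second peaks of a gene were chosen after their values were seen. Alternatives were −log10 q of at least 2 or 5, every coding start, windows of 500 bp or 3 kb, peaks merged within 1 kb and an overlap of 50%.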

Additional observations from a re-analysis of the deposited data

How the results depend on the processing

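The number of regions depended on the rule. It was 444 as reported, 354 at a −log10 q of at least 2 in all lists and 311 with a window of 500 bp, but 995 at a −log10 q of at least 5, 1092 with a window of 3 kb, 1076 with every coding start and 1261 when 50% of a peak had to be shared. At a q of 5, 983 of the 995 overlapped a control Kac or Kbz peak that the threshold had removed, and at a q of 2 this was so for 114 of the 354. The share of unbenzoylated SB Kac peaks in windows without control Kac (22.5%) became 19.5% at a q of 2, 41.2% at 5, 29.3% with every start, 30.6% with 3 kb and 19.9% with 500 bp. The share of genes with a window free of control Kac (87.3%) became 90.9%, 98.8%, 38.6% and 98.1% at a q of 2, a q of 5, 3 kb and 500 bp, and 35.1% with the 50% overlap. The share of CpG-rich promoters (48.1%) became 56.2% at a q of 2, 89.2% at 5, 31.4% with every start, 66.4% with the 50% overlap and 57.4% with 3 kb. With every start it is a share of 1960 starts and not of genes. The share with control Kac within 1 kb (11.3%) became 5.93%, 0.402%, 67.4% and 14.6% at a q of 2, a q of 5, the 50% overlap and 3 kb. Merging peaks within 1 kb could change nothing, since no list held gaps that short. Of 60 values recomputed under the other 6 settings 19 moved by less than their interval or 1.5 times and 41 by more, and for settings other than the q of 5 the cause was not tested. No paired analysis was possible because the libraries have no replicates, and none could be left out. Unknown depth limits every statement on absence.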
